A study of Caenorhabditis elegans with 8 samples.

Results

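The change of polyadenylated RNA between oocytes and 2-cell embryos of the nematode Caenorhabditis elegans was measured by sequencing. The interval spans meiotic completion, fertilization, eggshell formation and the first division. The genes described are the genes with at least 1 RPKM (reads scaled by transcript length and by the mapped reads of the library) in at least 2 of the 4 libraries compared, the 2 of 2-cell embryos and the 2 of oocytes. These are 8227 of the 21774 genes in the deposited table. Of these, 6850 reached 1 RPKM in all 4 libraries, 845 reached it in both 2-cell libraries and neither oocyte library, 101 did so in both oocyte libraries and neither 2-cell library, and 431 had another pattern. Just inside the rule lay F53B6.4, whose second-highest value was 1.0001 RPKM, and just outside it peb-1 at 0.997524 RPKM.

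The series holds 8 libraries, 2 each from 2-cell embryos, 1-cell embryos, sperm and oocytes. Its labels give one strain, TX189(OMA-1::GFP), which carries a GFP fusion of the maternal protein OMA-1, and growth at 24 °C for every library. The protocol differs from that label: it describes oocytes drawn by mouth pipette out of cut N2 wild-type hermaphrodites, and sperm purified and activated from males in a fog-2(q71) background. It describes flow sorting for the 1-cell embryos and gives no collection method for the 2-cell embryos. Strain, collection and stage therefore cannot be told apart in this comparison. Nothing says that the 2 libraries of a group came from separate cultures, so each p-value measures only the spread between these libraries, which may be technical.

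The fully grown worm oocyte is transcriptionally silent and is loaded with messages made earlier in the gonad. After fertilization the embryo runs on these maternal messages and proteins, builds a chitin-containing eggshell, polarizes and divides, while many maternal messages are degraded. Transcription from the embryonic genome starts in somatic cells a few divisions later, although sperm brings some RNA at fertilization. In bulk samples such as these, a transcript present in fewer cells and a transcript present at a lower level per cell cannot be told apart.

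Many polyadenylated transcripts differed in RPKM between the oocyte and the 2-cell stage. RPKM is relative to the reads of a library, so amounts per embryo were not measured, nor were lengths of poly(A) tails. Below, rose and fell refer to RPKM. Of the 8227 genes, 2526 (30.7%) were called higher in 2-cell embryos and 744 (9.04%) lower, 39.7% in all. A call needed an adjusted p under 0.05 in limma's moderated test and a difference of at least 1 in log2(RPKM + 1), a scale that understates the change of genes near 0. The decreases were fewer and deeper. A log2 difference of -4 or below was found for 19 genes called lower, and one of 4 or above for 11 genes called higher. Genes called lower made up 4.55% and 4.07% of the summed RPKM in the 2-cell libraries, against 24.2% and 23.8% in the oocyte libraries. Genes called higher made up 36.9% and 39.5% in the 2-cell libraries, against 14.4% and 14.5% in oocytes. Of the genes seen at 1 RPKM only in the 2-cell libraries, 509 were among those called higher, and of those seen only in oocytes, 57 were called lower. The filter passed these through the group in which they are high, so they had to differ. Both 2-cell libraries lay above both oocyte libraries in 4850 tested genes (59%) and below both in 1706 (20.7%), called or not. All 2526 genes called higher and all 744 called lower were among these, so a lack of overlap adds no support to a call.

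**Figure D1:**
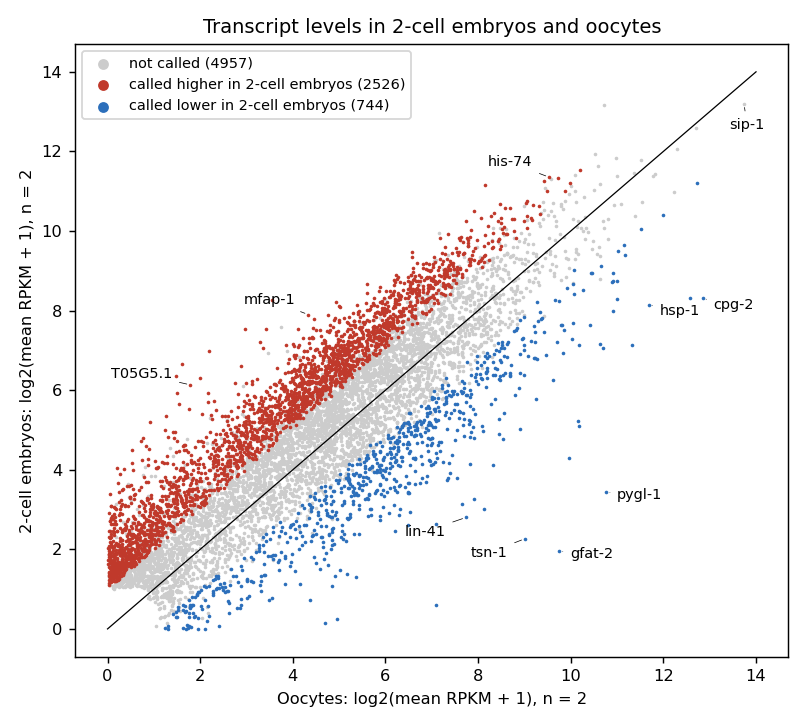
Mean level of each of the 8227 tested genes in 2-cell embryos (vertical axis) and oocytes (horizontal axis), both as log2(mean RPKM + 1) over 2 libraries, with genes called higher in 2-cell embryos in red (2526), called lower in blue (744) and not called in grey. Most called genes lie above the line of equal levels in a dense band, while the genes called lower spread far below it, down to pygl-1, tsn-1 and gfat-2.

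The libraries differed in ways that bear on these counts. Summed RPKM came to 832603 and 862903 in 2-cell embryos and 679187 and 642169 in oocytes, and 26.4% and 29.4% of genes were listed at 0 in 2-cell embryos, against 2.48% and 2.93% in oocytes. Replicates had a median SD of 0.37 on the log2 scale in 2-cell embryos and 0.15 in oocytes. The median log2 difference over all tested genes was 0.72. It was 0.42 with libraries scaled to a common sum, 0.17 with quantile normalization, 0.07 with the trend on transcript length removed and -0.05 with median-of-ratios scaling. Gene groups are therefore given by their median minus this overall median. Of the calls, 77.2% were higher on the values as deposited, 43.5% with quantile normalization, 39.6% without the length trend and 27.6% with median of ratios. With a common sum 1525 genes were higher and 977 lower. Under all of these 4 scalings, 584 of the 744 decreases and 236 of the 2526 increases kept their call. Leaving out either oocyte library left far fewer calls: without oocyte replicate 1, 108 genes were higher and 100 lower, and without oocyte replicate 2, 73 and 80, with the lone library assumed to vary like the other groups. Without 2-cell replicate 1 the counts were 1527 higher and 576 lower, and without 2-cell replicate 2 they were 1579 and 439. Below, a gene is said to hold throughout where its call stayed in all 17 alternatives, which was so for 56 decreases and 35 increases. Genes averaging under 10 RPKM over the 4 libraries, or without an annotated length, had no value in some alternatives and could not qualify.

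The difference varied with transcript length. Among the 5466 tested genes that averaged 10 RPKM or more and have an annotated length, the log2 difference fell by 0.64 per doubling of transcript length (Pearson's r across genes -0.453; genes are not independent replicates and share the 4 libraries). The 302 genes no longer than 500 nucleotides had a median of 1.66, which was 1.31 for the 1199 above that and up to 1000, 0.55 for the 2306 up to 2000, -0.12 for the 1396 up to 4000 and -0.07 for the 263 longer ones. Each of the 4 pairings of a 2-cell with an oocyte library gave a slope between -0.71 and -0.58, whereas the slope between replicates was 0.03 in 2-cell embryos and -0.11 in oocytes. The median length was 968 nucleotides for genes called higher and 2300.5 for genes called lower. With this trend removed by a smooth fit on length and level, 562 of 7711 genes with a length (7.29%) were called higher and 858 (11.1%) lower. The part of RNA quality, library preparation or the making of the oocyte columns in this trend was not tested, so each group below is also given with the trend removed.

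**Figure D2:**
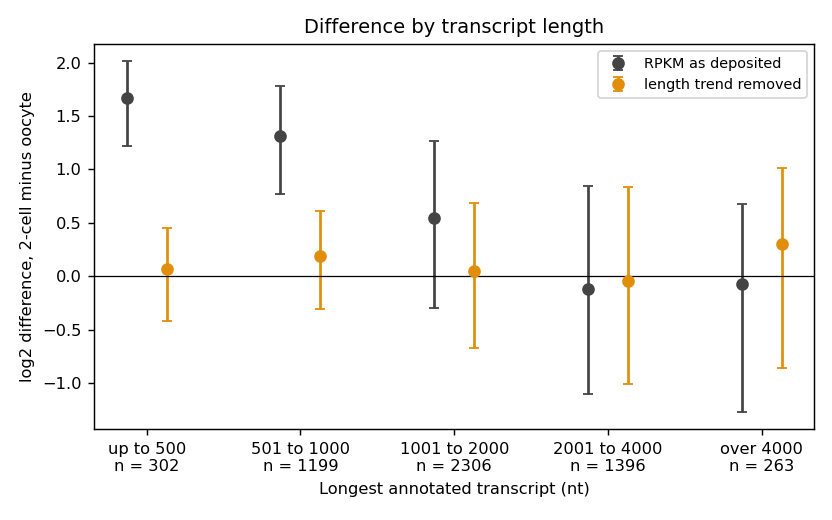
Median log2 difference, 2-cell embryos minus oocytes, by length of the longest annotated transcript in nucleotides, over genes averaging 10 RPKM or more (n under each bin), with bars for the middle quartiles; dark grey points are the RPKM as deposited and orange points the values with the length trend removed. The deposited values drop with length, 1.66 in the shortest bin and -0.12 in that up to 4000 nucleotides, and the orange points lie between -0.04 and 0.31.

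Enzymes of sugar metabolism, eggshell proteins and oocyte receptors were among the 15 largest decreases. gfat-2 (F22B3.4), a glutamine-fructose-6-phosphate aminotransferase that opens the route to the chitin precursor, had 3.75 and 2.01 RPKM in 2-cell embryos, against 636 and 1084 RPKM in oocytes, 0.335% of the oocyte mean (log2 difference -7.78, SE 0.65, adjusted p = 0.000494). Its paralog gfat-1 (F07A11.2) had 27.1 and 10.4 RPKM in 2-cell embryos, against 955 and 1049 RPKM in oocytes (log2 difference -5.80, SE 0.50, adjusted p = 0.000511). The glycogen phosphorylase pygl-1 (T22F3.3), which releases sugar from glycogen stores, averaged 9.81 ± 3.18 RPKM in 2-cell embryos and 1743 ± 103 RPKM in oocytes (SD, n = 2 each), 0.563% of the oocyte mean (log2 difference -7.36, SE 0.40, adjusted p = 8.7e-05). In these enzymes both 2-cell libraries lay far below both oocyte libraries. The glycogen synthase gsy-1 (Y46G5A.31) fell less, with 27.3 and 27.3 RPKM in 2-cell embryos, against 203 and 247 RPKM in oocytes (log2 -2.99). All 4 held throughout. sqv-4 (F29F11.1), the UDP-glucose dehydrogenase that feeds chondroitin synthesis, had 9.10 and 4.96 RPKM in 2-cell embryos, against 234 and 326 RPKM in oocytes (log2 -5.16), and held throughout too. Of 10 tested amino sugar and glycogen enzymes, 1 passed the filter through the oocyte libraries alone, which set its direction. Of all 10 enzymes, 6 were called lower and 0 higher, beside 9.04% and 30.7% of all tested genes. Their median was -2.99 relative to all genes and -2.26 with the length trend removed, where 7 were called lower (all genes with a length: 11.1%). The remaining members included the O-GlcNAc transferase ogt-1 at a log2 difference of 0.66 (adjusted p = 0.205) and the O-GlcNAcase oga-1 at -0.05 (adjusted p = 0.934).

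Most tested eggshell and egg activation genes, whose products act around sperm entry and shell formation, fell. The chitin-binding chondroitin proteoglycan cpg-2 (B0280.5) had 399 and 231 RPKM in 2-cell embryos, against 7861 and 6869.6 RPKM in oocytes (log2 difference -4.59, SE 0.66, adjusted p = 0.00326). By mean RPKM it ranked 2 among all genes in oocytes, and 4.28% of its oocyte mean was found in 2-cell embryos. cpg-1 (C07G2.1), another chondroitin proteoglycan of the shell, had 352 and 284 RPKM in 2-cell embryos, against 6976 and 5153 RPKM in oocytes (log2 -4.24, adjusted p = 0.00415). cpg-3 (R06C7.4) had 196 and 85.5 RPKM in 2-cell embryos against 2678 and 2478 in oocytes (log2 -4.30) and the chitin-binding protein gene cbd-1 (H02I12.1) 151 and 132 RPKM in 2-cell embryos against 1447 and 1733 in oocytes (log2 -3.47). The groups did not overlap in any of these, as in every called gene. The yolk receptor rme-2 (T11F8.3), through which the oocyte takes up yolk, averaged 33.1 ± 6.90 RPKM in 2-cell embryos and 1154 ± 415 RPKM in oocytes (SD, n = 2 each; log2 -5.05, adjusted p = 0.00214), and egg-1 (B0244.8), an oocyte surface protein needed for sperm entry, averaged 36.2 ± 31.4 RPKM in 2-cell embryos and 1146 ± 383 RPKM in oocytes (SD, n = 2 each; log2 -5.22, adjusted p = 0.00504). Of 19 tested eggshell and egg activation genes, 13 fell and 1 rose, 68.4% lower against 9.04% of all tested genes, with a median of -3.26 relative to all genes. Of the 19, 2 passed the filter through the oocyte libraries alone, which set their direction. After removal of the length trend 10 were lower and 0 higher (all genes with a length: 11.1% and 7.29%). The one that rose was perm-3 (log2 1.29, and 0.38 with the length trend removed), a member named after its values were seen, and its call ended there. The egg activation scaffold egg-3 did not pass (log2 -0.64, adjusted p = 0.28). cpg-2 and rme-2 held throughout, whereas the calls of egg-1, cpg-1, cpg-3 and cbd-1 were lost without 1 of the oocyte libraries, and that of cpg-3 without either.

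**Figure D3:**
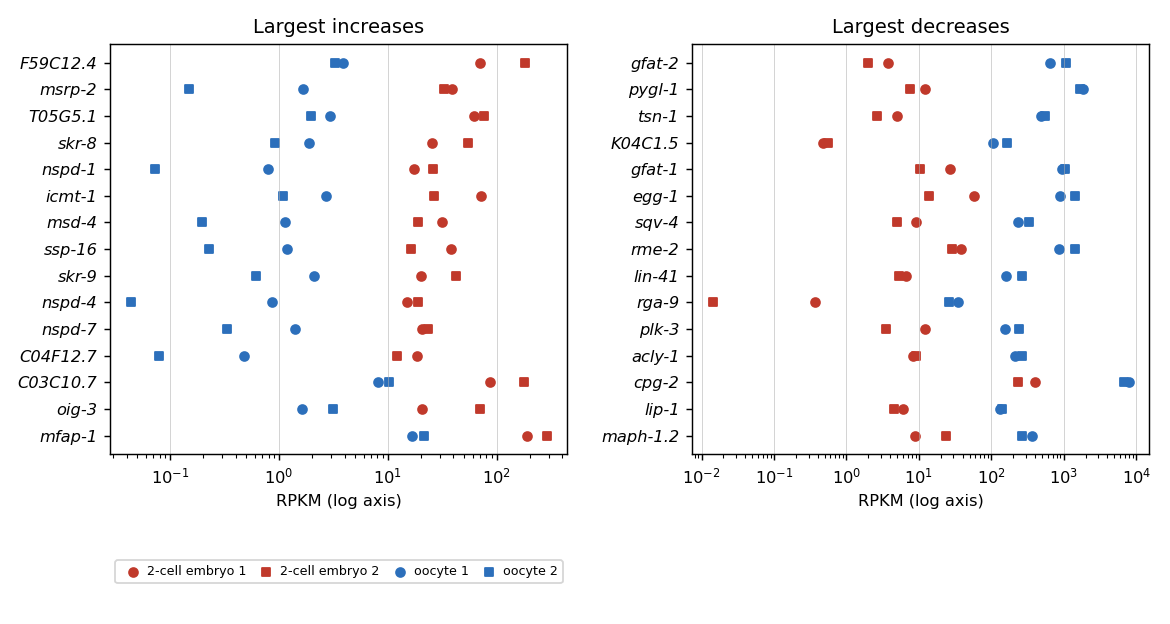
RPKM on a log axis in each library for the 15 genes with the largest increases (left) and the 15 with the largest decreases (right) among called genes whose higher group averaged 10 RPKM or more and whose libraries did not overlap; red marks 2-cell embryos, blue oocytes, circles replicate 1 and squares replicate 2. The decreases include transcripts above 1000 RPKM in oocytes such as cpg-2 and pygl-1, while the increases mostly begin under 10 RPKM in oocytes, mfap-1 being the highest there.

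Other genes among the 15 largest decreases came from diverse functions. tsn-1 (F10G7.2), the Tudor staphylococcal nuclease homolog, had 4.96 and 2.67 RPKM in 2-cell embryos, against 481 and 549 RPKM in oocytes (log2 difference -6.78, SE 0.42, adjusted p = 0.000151). K04C1.5 had 0.471 and 0.563 RPKM in 2-cell embryos, against 105 and 165 RPKM in oocytes (log2 -6.45), and the GTPase-activating protein gene rga-9 (2RSSE.1) had 0.366 and 0.0143 RPKM in 2-cell embryos, against 34.4 and 25.6 RPKM in oocytes (log2 -4.71). Both were under 1 RPKM in both 2-cell libraries, where the depth behind the values is unknown. They passed the filter through the oocyte libraries alone, which set their direction. The Polo-like kinase gene plk-3 (F55G1.8) averaged 7.87 ± 6.09 RPKM in 2-cell embryos and 199 ± 60.2 RPKM in oocytes (SD, n = 2 each; log2 -4.66). lip-1 (C05B10.1), a MAP kinase phosphatase that restrains ERK signalling in the germ line, had 6.03 and 4.51 RPKM in 2-cell embryos, against 132 and 138 RPKM in oocytes (log2 -4.45), and maph-1.2 (F25D7.4) had 8.78 and 23.8 RPKM in 2-cell embryos, against 368 and 265 RPKM in oocytes (log2 -4.33). In all 15, both 2-cell libraries were below both oocyte libraries, which the choice of these genes required. Their calls were kept under all 4 scalings. All but egg-1 held throughout.

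The 15 largest increases were mostly of short or little-known genes, and part of them were transcripts abundant in sperm. F59C12.4 had 69.8 and 182 RPKM in 2-cell embryos, against 3.91 and 3.25 RPKM in oocytes (log2 difference 4.64, SE 0.52, adjusted p = 0.00205). T05G5.1 averaged 69.2 ± 10.5 RPKM in 2-cell embryos and 2.45 ± 0.694 RPKM in oocytes (SD, n = 2 each), 28.2-fold higher in RPKM (log2 4.35, adjusted p = 0.00214). mfap-1 (F43G9.10), the homolog of a spliceosome component, had 189 and 287 RPKM in 2-cell embryos, against 16.7 and 21.6 RPKM in oocytes (log2 3.54, adjusted p = 0.00189). In these 3 genes both 2-cell libraries lay far above both oocyte libraries. Their sperm levels were 8.10 and 13.4, 6.94 and 9.74 and 51.9 and 53.7 RPKM. msrp-2 (ZK484.5) had 38.4 and 32.6 RPKM in 2-cell embryos, against 1.64 and 0.148 RPKM in oocytes (log2 4.39, adjusted p = 0.00262). ssp-16 (T27A3.3), of the sperm-specific protein family, had 37.7 and 16.3 RPKM in 2-cell embryos, against 1.18 and 0.228 RPKM in oocytes (log2 3.98, adjusted p = 0.00214). msd-4 (C35D10.11), an MSP-domain gene, had 31.6 and 18.8 RPKM in 2-cell embryos, against 1.13 and 0.198 RPKM in oocytes (adjusted p = 0.0024). In sperm these had 3652 and 7681, 2155 and 1980.2 and 3517 and 7086 RPKM, and 7 of the 15 had a sperm mean at least 10 times that of 2-cell embryos. Among all genes called higher, 194 of 2526 did so, against 462 of the 8227 tested.

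Several of the other large increases were in small families whose copies share sequence. skr-8 (C52D10.9), a Skp1-related gene, averaged 39.7 ± 20.5 RPKM in 2-cell embryos and 1.40 ± 0.666 RPKM in oocytes (SD, n = 2 each; log2 4.02). Its near-identical copy skr-9 (C52D10.7) averaged 31.2 ± 15.3 RPKM in 2-cell embryos and 1.36 ± 1.05 RPKM in oocytes (SD, n = 2 each; log2 3.76), and how reads were shared between such copies is not given. The nematode-specific peptide genes nspd-1, nspd-4 and nspd-7 rose by 4.01, 3.68 and 3.67 on the log2 scale, with sperm means of 3897, 3023 and 2711 RPKM. icmt-1 (F21F3.3), an isoprenylcysteine methyltransferase gene, had 71.9 and 26.5 RPKM in 2-cell embryos against 2.72 and 1.09 in oocytes (log2 4.01). C04F12.7 averaged 15.2 ± 4.47 RPKM in 2-cell embryos and 0.279 ± 0.282 RPKM in oocytes (SD, n = 2 each; log2 3.65). C04F12.7, nspd-1 and nspd-4 were under 1 RPKM in both oocyte libraries. They passed the filter through the 2-cell libraries alone, which set their direction. C03C10.7 averaged 132 ± 64.4 RPKM in 2-cell embryos and 9.19 ± 1.45 RPKM in oocytes (SD, n = 2 each; log2 3.62), and oig-3, a gene with a single immunoglobulin domain, had 20.5 and 70.3 RPKM in 2-cell embryos against 1.61 and 3.13 in oocytes (log2 3.57). Of the 15, 14 kept their call under all 4 scalings, oig-3 being the exception at 2.00 with the length trend removed. 10 kept it in every alternative that gave them a value; skr-8, skr-9, nspd-1, icmt-1 and oig-3 lost it without oocyte replicate 2.

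RNA-binding regulators of maternal messages fell where they changed. mex-5 (W02A2.7), a CCCH zinc-finger protein that polarizes the 1-cell embryo, had 454 and 405 RPKM in 2-cell embryos, against 2263 and 1808 RPKM in oocytes (log2 -2.24, adjusted p = 0.00893). The 2-cell mean was 21.1% of the oocyte mean, and the libraries did not overlap. lin-41 (C12C8.3), a TRIM-NHL protein that acts in oocyte growth and represses maternal messages, had 6.62 and 5.33 RPKM in 2-cell embryos, against 159 and 266 RPKM in oocytes (log2 -4.90, adjusted p = 0.00116). cgh-1 (C07H6.5), a DEAD-box helicase of germ cell RNP granules, had 259.9 and 135 RPKM in 2-cell embryos, against 1297 and 1449.8 RPKM in oocytes (log2 -2.86, adjusted p = 0.00643). car-1 (Y18D10A.17), its partner of the Lsm14 family, had 179 and 331 RPKM in 2-cell embryos, against 2136 and 1736 RPKM in oocytes (log2 -2.98, adjusted p = 0.0051). In both, the 2 oocyte libraries stood close together and well above the 2-cell libraries. puf-3 (Y45F10A.2), of the Pumilio family of repressors, had 159 and 122 RPKM in 2-cell embryos against 1158 and 1145 in oocytes (log2 -3.04). Of 38 tested RNA-binding regulators, 0 were called higher and 14 lower, beside 30.7% and 9.04% of all tested genes. Over these regulators the median log2 difference was -1.05, -1.77 relative to all tested genes and -0.84 relative to them with the length trend removed. With that trend removed, 1 was higher and 11 lower (all genes with a length: 7.29% and 11.1%). The remaining 24 did not pass, among them pos-1 (log2 0.84, adjusted p = 0.35), a CCCH protein of the posterior embryo. oma-1, the gene tagged in the labelled strain and named for that reason, had 243 and 210.4 RPKM in 2-cell embryos, against 464 and 556 RPKM in oocytes and was called lower by a narrow margin (log2 -1.16, adjusted p = 0.0491). Its call ended with the length trend removed and without any 1 of the 4 libraries. lin-41 held throughout, whereas mex-5, cgh-1, car-1 and puf-3 lost their calls without either oocyte library.

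Among genes listed as components of P granules, the RNA-rich condensates of the germ line, 3 fell. pgl-3 (C18G1.4), a self-assembling P granule scaffold, averaged 26.4 ± 0.595 RPKM in 2-cell embryos and 372 ± 13.7 RPKM in oocytes (SD, n = 2 each; log2 -3.76, adjusted p = 0.000927). The 2-cell mean was 7.11% of the oocyte mean, and the call held throughout. glh-2 (C55B7.1), a Vasa-related helicase, had 37.2 and 35.4 RPKM in 2-cell embryos, against 80.5 and 133 RPKM in oocytes (log2 -1.49, adjusted p = 0.0212). gap-3 (Y20F4.3), a Ras GTPase-activating protein homolog, had 6.22 and 1.72 RPKM in 2-cell embryos, against 24.9 and 22.2 RPKM in oocytes (log2 -2.47, adjusted p = 0.0194). Both lost their call without either oocyte library. By its homology gap-3 is a signalling gene, so the counts and medians describe the list and not granule components alone. Of 12 tested genes in the list, 0 were called higher (0%, against 30.7% of all tested genes) and 3 lower (25%, against 9.04%). Their median log2 difference was -0.55, -1.28 relative to all tested genes and -0.21 relative to them with the length trend removed. After that removal 3 were lower and 0 higher (all genes with a length: 11.1% and 7.29%).

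Among cortical polarity and cell fate signalling genes, all calls on the deposited values were decreases. par-2 (F58B6.3), the RING-finger protein of the posterior cortex, had 11.9 and 24.6 RPKM in 2-cell embryos, against 117 and 81.1 RPKM in oocytes (log2 -2.44, adjusted p = 0.0102). gpa-16 (Y95B8A.5), a G protein alpha subunit that positions spindles, had 28.3 and 7.31 RPKM in 2-cell embryos, against 68.4 and 93.1 RPKM in oocytes (log2 -2.37, adjusted p = 0.0205). Both were lower in both 2-cell libraries than in either oocyte library. ani-1 (Y49E10.19), an anillin, had 52.9 and 57.9 RPKM in 2-cell embryos against 109 and 146 in oocytes (log2 -1.17), which was no longer called once the length trend was taken out. Of 26 tested polarity and contractility genes, 0 were called higher (0%, against 30.7% of all tested genes) and 6 lower (23.1%, against 9.04%). Their median log2 difference was -0.27, and -0.19 relative to all tested genes with the length trend removed. With the trend removed 1 was higher and 5 lower (all genes with a length: 7.29% and 11.1%). Among the maternal fate genes, gsk-3 (Y18D10A.5), a kinase of the Wnt pathway that also marks maternal proteins for destruction, averaged 6.65 ± 3.82 RPKM in 2-cell embryos and 91.0 ± 8.66 RPKM in oocytes (SD, n = 2 each; log2 difference -3.68, SE 0.54, adjusted p = 0.00349) and held throughout. lit-1 (W06F12.1), the Nemo-like kinase of the Wnt asymmetry pathway, had 9.80 and 9.68 RPKM in 2-cell embryos, against 56.7 and 50.2 RPKM in oocytes (log2 -2.34, adjusted p = 0.00356). kin-19 (C03C10.1), a casein kinase 1 alpha, had 101 and 125 RPKM in 2-cell embryos, against 425 and 367 RPKM in oocytes (log2 -1.81, adjusted p = 0.00727). skn-1 (T19E7.2), a transcription factor that specifies endomesoderm, had 46.4 and 22.4 RPKM in 2-cell embryos, against 96.7 and 83.1 RPKM in oocytes (log2 -1.45, adjusted p = 0.0369). The skn-1 call ended with the length trend removed. Of 19 tested maternal fate signalling genes, 0 were called higher (0%, against 30.7% of all tested genes) and 4 lower (21.1%, against 9.04%). For the fate genes the median log2 difference was -0.11, -0.84 relative to all tested genes and -0.23 relative to them with the length trend removed.

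Cell cycle genes moved in both directions and mostly little. cul-3 (Y108G3AL.1), a cullin of the ubiquitin ligase that clears the meiotic katanin, had 39.0 and 34.3 RPKM in 2-cell embryos, against 213 and 236 RPKM in oocytes (log2 -2.59, adjusted p = 0.00261). cul-2 (ZK520.4), another cullin scaffold, used in meiotic exit, averaged 49.6 ± 17.9 RPKM in 2-cell embryos and 181 ± 23.3 RPKM in oocytes (SD, n = 2 each; log2 -1.89, adjusted p = 0.0101). cul-3 held throughout. cdc-25.1 (K06A5.7), the phosphatase that activates mitotic cyclin-dependent kinase, had 101 and 120.1 RPKM in 2-cell embryos against 269.8 and 310.4 in oocytes (log2 -1.38). bir-1 (T27F2.3), the survivin homolog of the chromosomal passenger complex, had 288 and 304 RPKM in 2-cell embryos, against 88.3 and 95.3 RPKM in oocytes (log2 1.68, adjusted p = 0.00717). The bir-1 call ended with median-of-ratios scaling or the length trend removed, and that of cdc-25.1 with the trend removed. Of 60 tested cell cycle and spindle genes, 5 were called higher and 8 lower, against 30.7% and 9.04% of all tested genes. Across the cell cycle list the median log2 difference was -0.06, -0.78 relative to all tested genes and -0.12 relative to them with the length trend removed. Of DNA replication genes, the helicase subunits mcm-2 (Y17G7B.5) and mcm-4 (Y39G10AR.14) had 56.0 and 109.7 RPKM in 2-cell embryos against 522 and 494 in oocytes and 117 and 196 RPKM in 2-cell embryos against 496 and 506 in oocytes (log2 -2.68 and -1.72). rnr-1 (T23G5.1), the large ribonucleotide reductase subunit, had 172 and 141 RPKM in 2-cell embryos against 427 and 552 in oocytes (log2 -1.64), and orc-5 (ZC168.3), of the origin recognition complex, 118 and 55.8 RPKM in 2-cell embryos against 24.4 and 28.3 in oocytes (log2 1.60). Of 26 tested DNA replication genes, 2 were called higher (7.69%, against 30.7% of all tested genes) and 3 lower (11.5%, against 9.04%). Their median relative to all genes was -0.05, or 0.04 with the length trend removed, so its sign changed. mcm-2 alone of these 4 kept its call under the 4 scalings.

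Many enzymes of central carbon metabolism fell. mdh-1 (F46E10.10), the cytosolic malate dehydrogenase, had 152 and 92.1 RPKM in 2-cell embryos, against 986 and 822 RPKM in oocytes (log2 -2.92, adjusted p = 0.00261). mdh-2 (F20H11.3), a malate dehydrogenase of mitochondria, had 167 and 129 RPKM in 2-cell embryos, against 942 and 725 RPKM in oocytes (log2 -2.48, adjusted p = 0.00314). acly-1 (D1005.1), ATP citrate lyase, which makes cytosolic acetyl-CoA, averaged 8.63 ± 0.512 RPKM in 2-cell embryos and 241 ± 38.3 RPKM in oocytes (SD, n = 2 each; log2 -4.64, adjusted p = 0.000494). In each, both 2-cell libraries lay well below both oocyte libraries. enol-1 (T21B10.2), enolase, had 553 and 428 RPKM in 2-cell embryos against 1504 and 1309 in oocytes (log2 -1.53), and gpd-4 (F33H1.2), a glyceraldehyde-3-phosphate dehydrogenase whose copies share sequence, 485 and 267 RPKM in 2-cell embryos against 1019.8 and 920.1 in oocytes (log2 -1.43). Of 40 tested glycolysis and TCA cycle genes, 1 was called higher and 19 lower, against 30.7% and 9.04% of all tested genes. Over these enzymes the median log2 difference was -1.22, -1.94 relative to all tested genes and -1.28 relative to them with the length trend removed. After that removal 18 were lower and 1 higher (all genes with a length: 11.1% and 7.29%), and 16 of the 19 decreases were kept under all 4 scalings. The one called higher was idhg-1 (log2 1.58), an isocitrate dehydrogenase subunit named after its values were seen. mdh-1 and acly-1 held throughout, and mdh-2 lost its call without oocyte replicate 1.

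Respiratory chain genes were called in shares near those of all tested genes. atp-1 (H28O16.1), the ATP synthase alpha subunit, had 251 and 374 RPKM in 2-cell embryos, against 2378 and 1717 RPKM in oocytes (log2 -2.72, adjusted p = 0.00296). atp-2 (C34E10.6), the beta subunit, had 707 and 645 RPKM in 2-cell embryos, against 2487 and 2145 RPKM in oocytes (log2 -1.77, adjusted p = 0.00635). Small subunits were among the genes called higher: asg-1 (K07A12.3), ATP synthase subunit g, had 1002 and 1459.7 RPKM in 2-cell embryos against 666 and 478 in oocytes (adjusted p = 0.0437), and cox-6A (F54D8.2), of cytochrome oxidase, 1064 and 987 RPKM in 2-cell embryos against 459 and 411 in oocytes (log2 1.24). Of 44 tested nuclear-encoded respiratory chain genes, 12 were called higher (27.3%, against 30.7% of all tested genes) and 5 lower (11.4%, against 9.04%). With the length trend removed 1 was higher and 4 lower (all genes with a length: 7.29% and 11.1%). Respiratory chain genes had a median log2 difference that was 0.53, -0.20 relative to all tested genes and -0.45 relative to them with the length trend removed. atp-1 held throughout, whereas atp-2, asg-1 and cox-6A lost their calls with the length trend removed. Among 17 vacuolar ATPase subunits, which acidify organelles, 2 were higher and 2 lower (11.8% and 11.8%, against 30.7% and 9.04% of all tested genes), with vha-9 (ZK970.4) at 560.4 and 587 RPKM in 2-cell embryos against 106 and 118 in oocytes (log2 2.35) and vha-12 (F20B6.2) at 87.3 and 66.4 RPKM in 2-cell embryos against 372 and 324 in oocytes (log2 -2.18). vha-11 (Y38F2AL.3) averaged 31.6 ± 8.93 RPKM in 2-cell embryos and 78.1 ± 7.36 RPKM in oocytes (SD, n = 2 each), and vha-17 (F49C12.13) stood at log2 1.16 on deposited values and -0.22 with the length trend removed. Vacuolar ATPase genes had a median log2 difference that was 0.00, -0.72 relative to all tested genes and -0.49 relative to them with the length trend removed.

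Several chaperone and tubulin genes were among the abundant messages that fell. hsp-1 (F26D10.3), the constitutive cytosolic Hsp70, had 286 and 279.8 RPKM in 2-cell embryos, against 3445 and 3112 RPKM in oocytes (log2 difference -3.53, SE 0.42, adjusted p = 0.00214), and 8.63% of its oocyte mean was found in 2-cell embryos. cct-7 (T10B5.5), a subunit of the TRiC chaperonin that folds actin and tubulin, had 33.1 and 29.6 RPKM in 2-cell embryos, against 503 and 457 RPKM in oocytes (log2 -3.89, adjusted p = 0.00167). cct-6 (F01F1.8), another TRiC subunit, had 169 and 108 RPKM in 2-cell embryos, against 494 and 515 RPKM in oocytes (log2 -1.89, adjusted p = 0.0105). sti-1 (R09E12.3), a co-chaperone that links Hsp70 and Hsp90, had 91.0 and 146 RPKM in 2-cell embryos against 526 and 425 in oocytes (log2 -2.03). hsp-1 and cct-7 held throughout. Of 21 tested chaperone genes, 2 were called higher (9.52%, against 30.7% of all tested genes) and 9 lower (42.9%, against 9.04%). The table holds 33 of them, and 9 were lower with the length trend removed, against 11.1% of all genes with a length. Among the listed chaperones the median log2 difference was -1.05, -1.78 relative to all tested genes and -0.92 relative to them with the length trend removed. The list does not hold the whole dnj class of DnaJ co-chaperones, looked at after its values were seen. Of 26 tested dnj genes, 10 were called higher and 0 lower (38.5% and 0%, against 30.7% and 9.04% of all tested genes). With the length trend removed 4 were higher and 1 lower (all genes with a length: 7.29% and 11.1%). dnj-22 (log2 3.09) held throughout. Of 16 tubulin genes 6 were tested, 4 fell and 0 rose (66.7% and 0%, against 9.04% and 30.7% of all tested genes). The alpha tubulins tba-1 and tba-2 had 850.0 and 743 RPKM in 2-cell embryos against 2496 and 2043 in oocytes and 975 and 1147 RPKM in 2-cell embryos against 3409 and 2420.4 in oocytes, and the beta tubulins tbb-1 and tbb-2 567 and 425 RPKM in 2-cell embryos against 2039.5 and 1840.4 in oocytes and 1318 and 1384 RPKM in 2-cell embryos against 4768 and 3428 in oocytes. Their log2 differences were -1.51, -1.44, -1.98 and -1.58, and tbb-1 alone kept its call with the length trend removed (all genes with a length: 11.1% lower). These copies share sequence, so the split between them is uncertain. Tested tubulins had a median log2 difference of -1.47, and of -0.61 relative to all tested genes with the length trend removed.

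Proteasome genes were called lower in a share near that of all tested genes, with none called higher, and nuclear transport genes mostly did not pass. rpn-1 (T22D1.9), a base subunit of the proteasome regulatory particle, averaged 84.7 ± 17.4 RPKM in 2-cell embryos and 381 ± 44.6 RPKM in oocytes (SD, n = 2 each; log2 -2.17, adjusted p = 0.00691). rpt-6 (Y49E10.1), one of its ATPases, had 89.5 and 76.4 RPKM in 2-cell embryos, against 329.9 and 329.6 RPKM in oocytes (log2 -1.98, adjusted p = 0.00504). Of 32 tested proteasome subunits, 0 were called higher (0%, against 30.7% of all tested genes) and 4 lower (12.5%, against 9.04%). With the length trend removed 2 stayed lower (all genes with a length: 11.1%), rpt-5 (log2 -1.15) and rpn-2 (log2 -1.63) being the ones lost. Proteasome genes had a median log2 difference that was -0.25, -0.97 relative to all tested genes and -0.33 relative to them with the length trend removed. xpo-2 (Y48G1A.5), the exportin that recycles importin alpha, averaged 65.8 ± 29.4 RPKM in 2-cell embryos and 472 ± 79.4 RPKM in oocytes (SD, n = 2 each; log2 -2.89, adjusted p = 0.0079). npp-9 (F59A2.1), the RanBP2 nucleoporin, had 102 and 119.8 RPKM in 2-cell embryos, against 541 and 662 RPKM in oocytes (log2 -2.43, adjusted p = 0.00551). imb-3 (C53D5.6), an importin beta family receptor, had 59.6 and 81.2 RPKM in 2-cell embryos against 268 and 239 in oocytes (log2 -1.85). baf-1 (B0464.7), which bridges DNA and the nuclear envelope, had 783 and 1192 RPKM in 2-cell embryos against 402 and 340.1 in oocytes (log2 1.38), but the call ended with the trend removed. Of 42 tested nuclear pore and transport genes, 2 were called higher (4.76%, against 30.7% of all tested genes) and 7 lower (16.7%, against 9.04%). Transport genes had a median log2 difference that was -0.27, -0.99 relative to all tested genes and -0.31 relative to them with the length trend removed.

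Messages of RNA decay and Argonautes were split. tsn-1 gave the largest decrease of the decay list, and members of the Lsm ring, which binds deadenylated messages, were among those called higher. lsm-7 (ZK593.7), a member of that ring, had 569 and 809.8 RPKM in 2-cell embryos, against 173 and 138 RPKM in oocytes (log2 2.13, adjusted p = 0.00717). lsm-1 and lsm-5, also called, stood at log2 1.59 and 1.34, but at 0.22 and -0.47 with the length trend removed, and none of the 3 kept its call then. lsm-4 did not pass (log2 1.08, adjusted p = 0.156). Of 41 tested mRNA decay genes, 9 were called higher (22%, against 30.7% of all tested genes) and 6 lower (14.6%, against 9.04%). With the trend removed 2 were higher and 6 lower (all genes with a length: 7.29% and 11.1%). In the decay list the median log2 difference was 0.06, -0.66 relative to all tested genes and -0.15 relative to them with the length trend removed. Among Argonautes, the proteins that carry small RNAs, wago-4 (F58G1.1), a germline Argonaute of inherited silencing, had 18.2 and 19.1 RPKM in 2-cell embryos, against 127 and 145 RPKM in oocytes (log2 -2.80, adjusted p = 0.0051). alg-1 (F48F7.1), a microRNA Argonaute, had 8.52 and 5.12 RPKM in 2-cell embryos, against 26.4 and 28.9 RPKM in oocytes (log2 -1.91, adjusted p = 0.00736). alg-2 (T07D3.7), its paralog, had 27.3 and 38.2 RPKM in 2-cell embryos against 149 and 109.6 in oocytes (log2 -1.95). alg-5 (T23D8.7), a germline microRNA Argonaute, had 87.4 and 82.9 RPKM in 2-cell embryos against 27.8 and 34.2 in oocytes (log2 1.44), higher in 2-cell embryos. Of 16 tested Argonautes, 1 was called higher (6.25%, against 30.7% of all tested genes) and 3 lower (18.8%, against 9.04%). The table holds 20 of them. Argonaute genes had a median log2 difference that was -0.34, -1.07 relative to all tested genes and -0.29 relative to them with the length trend removed. wago-4, alg-1 and alg-2 kept their calls under the 4 scalings and lost them without either oocyte library. The call of alg-5 ended with a common sum, median of ratios and quantile normalization.

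Small RNA biogenesis and meiotic chromosome genes were called higher in shares near that of all tested genes, with 1 member of each called lower. mut-2 (K04F10.6), a nucleotidyltransferase that extends RNA targets of silencing, had 154 and 107 RPKM in 2-cell embryos, against 27.1 and 23.5 RPKM in oocytes (log2 2.30, adjusted p = 0.0098). rde-2 (F21C3.4), a mutator focus protein, had 94.5 and 201 RPKM in 2-cell embryos against 42.4 and 41.7 in oocytes (log2 1.69). tofu-5 (W01A8.5), a factor for piRNA transcription, had 423 and 319 RPKM in 2-cell embryos against 97.9 and 125 in oocytes (log2 1.72). The one called lower was pup-2 (K10D2.2), a poly(U) polymerase, with 131 and 65.7 RPKM in 2-cell embryos against 228 and 305 in oocytes (log2 -1.49). Of 39 tested small RNA biogenesis genes, 14 were called higher (35.9%, against 30.7% of all tested genes) and 1 lower (2.56%, against 9.04%). 13 were higher and 0 lower with the length trend removed, beside 7.29% and 11.1% of all genes with a length. Across small RNA genes the median log2 difference was 1.09, 0.37 relative to all tested genes and 0.88 relative to them with the length trend removed. Under all 4 scalings 2 of the increases were kept, mut-2 among them. Of the meiotic genes, htp-1 (F41H10.10), a HORMA-domain axis protein, averaged 317 ± 29.1 RPKM in 2-cell embryos and 122 ± 4.42 RPKM in oocytes (SD, n = 2 each; log2 1.37; 1.03 with the trend removed). him-8 (T07G12.12), which pairs the X chromosomes, averaged 101 ± 64.6 RPKM in 2-cell embryos and 19.1 ± 0.0734 RPKM in oocytes (SD, n = 2 each; log2 2.18), pch-2 stood at 1.76 and lab-1 at 1.43. Of 41 tested meiotic chromosome genes, 12 were called higher (29.3%, against 30.7% of all tested genes) and 1 lower (2.44%, against 9.04%). After the trend was removed 7 were higher and 1 lower (all genes with a length: 7.29% and 11.1%). Meiotic genes had a median log2 difference that was 0.97, 0.25 relative to all tested genes and 0.53 relative to them with the length trend removed. Of these 4, htp-1 alone stayed called with the trend removed, and all 4 calls ended with a common sum.

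Few genes listed as early zygotic transcripts, the first the embryo itself makes, reached 1 RPKM in all 4 libraries. Of the 58 listed, 32 were tested and 26 were not. Of the tested ones, 18 passed only through the 2-cell libraries, so their direction was set by the filter, and 13 reached 1 RPKM in all 4 libraries. 25 were called higher and 1 lower, but 3 higher and 1 lower with the length trend removed, and since the filter fixed most of these directions, nothing is read from the counts. hnd-1 (C44C10.8), a Hand-family bHLH factor of the mesoderm, had 30.3 and 31.0 RPKM in 2-cell embryos, against 5.85 and 5.93 RPKM in oocytes (adjusted p = 0.00525). sdz-37 (ZK673.10), a target of the maternal factor SKN-1, had 35.8 and 40.9 RPKM in 2-cell embryos against 8.09 and 9.10 in oocytes (log2 2.04). ref-1 (T01E8.2), a bHLH factor downstream of Notch, had 19.1 and 26.3 RPKM in 2-cell embryos against 6.38 and 6.03 in oocytes (log2 1.70). The 3 were higher in both 2-cell libraries than in either oocyte library, and their calls ended without either oocyte library; those of sdz-37 and ref-1 ended with the length trend removed. die-1 (C18D1.1), a zinc-finger gene also supplied by the mother, was the one called lower, averaging 13.5 ± 3.72 RPKM in 2-cell embryos and 42.3 ± 3.91 RPKM in oocytes (SD, n = 2 each; log2 -1.60). The GATA factor genes that start endoderm were near the detection limit: med-1 had 1.60 and 3.06 RPKM in 2-cell embryos against 0.000963 and 0.0116 in oocytes, and end-1 had 1.57 and 0.778 RPKM in 2-cell embryos against 0.294 and 0.325 in oocytes. The intestinal factor elt-2 stayed under 1 RPKM in both groups.

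Among genes of the transcription machinery, small polymerase subunits were among those called higher on the deposited values. rpb-11 (W01G7.3), a small subunit of RNA polymerase II, had 723 and 1126 RPKM in 2-cell embryos, against 252 and 199.9 RPKM in oocytes (log2 2.00, adjusted p = 0.0128). rpb-8 rose by 1.75, rpb-10 by 1.56 and taf-13, a TFIID subunit, by 1.73 on the log2 scale. With the length trend removed they stood at 0.67, 0.62, -0.04 and 0.32, and none of the 4 calls remained. Of 71 tested basal transcription genes, 29 were called higher (40.8%, against 30.7% of all tested genes) and 4 lower (5.63%, against 9.04%). After the trend was removed 14 were higher and 5 lower (all genes with a length: 7.29% and 11.1%). Over the transcription list the median log2 difference was 1.21, 0.49 relative to all tested genes and 0.23 relative to them with the length trend removed. Chromatin regulators went both ways. swsn-1 (Y113G7B.23), a core subunit of the SWI/SNF remodeler, had 16.7 and 30.4 RPKM in 2-cell embryos, against 126 and 125 RPKM in oocytes (log2 -2.42, adjusted p = 0.022). swsn-4 (F01G4.1), its ATPase, was higher, with 88.2 and 150.0 RPKM in 2-cell embryos against 34.8 and 35.5 in oocytes (log2 1.68; 2.30 with the trend removed). lin-52 and lin-37, members of the DREAM repressor complex, stood at 1.66 and 1.37. Of 52 tested chromatin regulators, 7 were called higher (13.5%, against 30.7% of all tested genes) and 6 lower (11.5%, against 9.04%). Relative to all genes their median was -0.26, and 0.28 with the length trend removed, so its sign changed.

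Skp1-related genes, which encode the adaptor that joins F-box proteins to a cullin, had no member called lower. skr-1 (F46A9.5) and skr-2 (F46A9.4) were the abundant ones, with 677 and 548 RPKM in 2-cell embryos against 243 and 287 in oocytes and 819 and 912 RPKM in 2-cell embryos against 328 and 305 in oocytes (adjusted p = 0.0242 and 0.0228). skr-3 (F44G3.6), a further Skp1 homolog, had 53.4 and 34.8 RPKM in 2-cell embryos against 7.56 and 10.1 in oocytes (log2 2.18). skr-18 (F56B3.12) had 112 and 161 RPKM in 2-cell embryos against 51.6 and 56.2 in oocytes. Of 16 tested Skp1-related genes, 1 passed the filter through the 2-cell libraries alone, which set its direction. Of these 16 genes, 10 were called higher (62.5%, against 30.7% of all tested genes) and 0 lower (0%, against 9.04%). The table holds 19 of them, and 4 were higher with the length trend removed, against 7.29% of all genes with a length. Across the family the median log2 difference was 1.64, 0.92 relative to all tested genes and 0.44 relative to them with the length trend removed. The calls of skr-1, skr-2, skr-3 and skr-18 ended with the trend removed, and those of skr-8 and skr-9 stayed.

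Ribosomal proteins and histones, whose messages are short, had members called higher on the deposited values and almost none with the length trend removed. rps-23 (F28D1.7), a small-subunit protein, had 994 and 1457 RPKM in 2-cell embryos, against 389.9 and 296 RPKM in oocytes (log2 1.82, adjusted p = 0.013). rpl-29 had 642 and 1806 RPKM in 2-cell embryos against 243 and 181 in oocytes (log2 2.35), rps-25 769.6 and 902 RPKM in 2-cell embryos against 264 and 177 in oocytes (log2 1.94) and rpl-25.2 983 and 535 RPKM in 2-cell embryos against 202 and 166 in oocytes (log2 1.98). The libraries did not overlap in these 4, as in every called gene, and the calls ended with median-of-ratios scaling and with the length trend removed. Of 75 tested cytosolic ribosomal protein genes, 30 were called higher (40%, against 30.7% of all tested genes) and 0 lower (0%, against 9.04%). With the trend removed 0 were higher and 1 lower (all genes with a length: 7.29% and 11.1%). Their median relative to all genes was 0.29 and changed sign to -0.33 there. Of 67 mitochondrial ribosomal proteins 31 were higher and 0 lower (46.3% and 0%, against 30.7% and 9.04% of all tested genes), and with the trend removed 0 and 1, the median relative to all genes being 0.42 and -0.10. mrpl-34, mrpl-51, mrpl-18 and mrps-18A were the most abundant of the called ones, at log2 1.93, 1.76, 1.88 and 1.64. his-74 (W05B10.1), a histone H3 variant, had 2645 and 2583 RPKM in 2-cell embryos, against 789.8 and 691 RPKM in oocytes (log2 1.82, adjusted p = 0.0103). Its ratio of means was 3.53, and the call stayed with the length trend removed and ended with median of ratios. The core histone genes his-37, his-41 and his-60, whose copies share sequence, stood at 2.36, 2.32 and 1.63 as deposited and at 0.71, 0.76 and -0.26 with the trend removed. Of 52 tested core histones, 13 were called higher (25%, against 30.7% of all tested genes) and 0 lower (0%, against 9.04%). The table holds 69 of them, and 9 passed through the 2-cell libraries alone, so their direction was set by the filter. 1 was higher and 7 lower with the trend removed, where the median relative to all genes was -0.88 and not 0.16 as on the deposited values. Replication-dependent histone messages largely lack a poly(A) tail, and the library was made from polyadenylated RNA.

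Translation factors and tRNA synthetases showed mixed calls. eef-1A.1 (F31E3.5), which brings aminoacyl-tRNA to the ribosome, had 2503 and 2257 RPKM in 2-cell embryos, against 8119 and 5445 RPKM in oocytes (log2 -1.48, adjusted p = 0.0295), and eef-2 (F25H5.4), which moves the ribosome along, 309.5 and 303 RPKM in 2-cell embryos against 795 and 809.7 in oocytes (log2 -1.39). eif-4A3 (Y65B4A.6), a helicase of the exon junction complex, had 42.6 and 24.5 RPKM in 2-cell embryos, against 316 and 225 RPKM in oocytes (adjusted p = 0.0074). iff-1 (T05G5.10), a germline eIF5A homolog, had 1311 and 1721 RPKM in 2-cell embryos, against 415 and 345 RPKM in oocytes (log2 1.99, adjusted p = 0.00765). The calls of eef-1A.1 and eef-2 ended with the length trend removed, and that of iff-1 with median of ratios. Of 38 tested translation factors, 6 were called higher (15.8%, against 30.7% of all tested genes) and 4 lower (10.5%, against 9.04%). Translation factors had a median log2 difference that was 0.42, -0.30 relative to all tested genes and -0.11 relative to them with the length trend removed. Of 31 aminoacyl-tRNA synthetases 3 were higher and 4 lower (9.68% and 12.9%, against 30.7% and 9.04% of all tested genes), with a median relative to all genes of -0.13 that changed sign to 0.27 with the trend removed. The cytosolic alanyl enzyme aars-2 stood at -1.29 and the threonyl enzyme tars-1 at -1.62, while sars-1 stood at 1.59 and rars-2 at 1.70, and of these tars-1 kept its call under the 4 scalings.

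**Figure D4:**
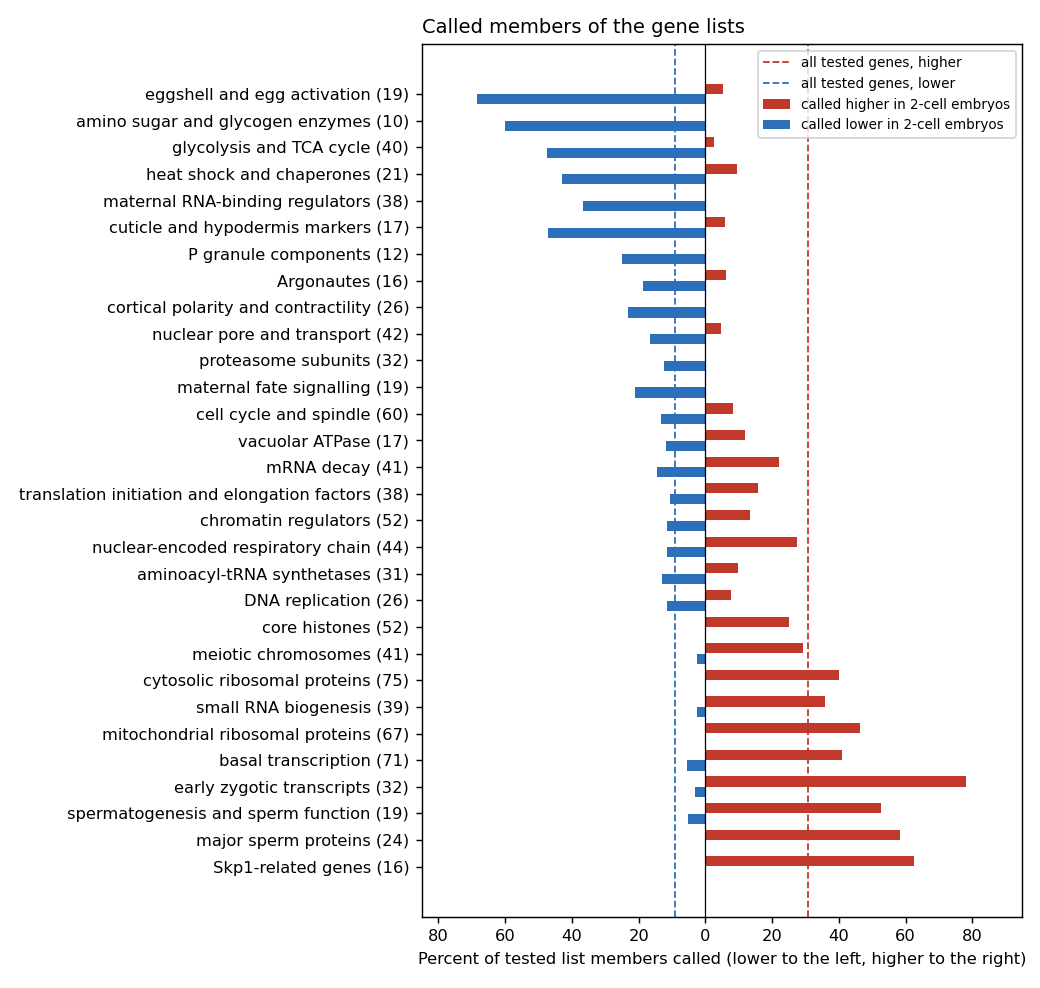
Percentage of tested genes called higher in 2-cell embryos (red, to the right) and called lower (blue, to the left) in each gene list with at least 10 tested members, with dashed lines at the shares of all tested genes, 30.7% and 9.04%. Eggshell genes (68.4% lower), amino sugar enzymes (6 of 10 lower) and glycolysis and TCA cycle genes (47.5% lower) reach farthest left, and early zygotic transcripts (78.1% higher) farthest right, although 18 of those 32 passed the filter through the 2-cell libraries alone and 3 are called higher with the length trend removed. In turn, 2 eggshell genes and 1 amino sugar enzyme passed through the oocyte libraries alone.

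Major sperm protein messages summed far below their level in sperm in both groups, and many of the sperm-type genes tested entered through the 2-cell libraries alone, which set their direction. Major sperm proteins, the cytoskeletal and signalling proteins of nematode sperm, summed to 195 RPKM in 2-cell replicate 1 and less in replicate 2, 32.3 and 2.98 in oocytes and 207201 and 215258 in sperm. Of 46 such genes 24 were tested, 13 of them through the 2-cell libraries alone, and none reached 1 RPKM in all 4 libraries (0 genes). 14 were called higher and 0 lower, and 2 higher with the length trend removed, where their median relative to all genes was -0.04 against 0.77 as deposited. Given the filter, these counts and medians support no direction for the family. ssp-35 (F55C5.1), a sperm-specific family gene, had 14.5 and 5.16 RPKM in 2-cell embryos against 0.293 and 0.0771 in oocytes (log2 3.05). msp-53 (R13H9.4), a major sperm protein gene whose copies are near-identical, had 10.5 and 3.93 RPKM in 2-cell embryos against 2.25 and 0.159 in oocytes (log2 1.96). Beyond these, spe-36 (F40F11.4), a sperm protein needed for fertilization, had 24.2 and 95.3 RPKM in 2-cell embryos against 3.46 and 3.59 in oocytes (log2 3.45). cpb-1 (C40H1.1), a CPEB homolog that acts in spermatogenesis, fell by 1.67 on the log2 scale (adjusted p = 0.0155). spe-5, a vacuolar ATPase subunit needed for sperm, stood at 1.65. Of 19 tested spermatogenesis genes, 10 were called higher (52.6%, against 30.7% of all tested genes) and 1 lower (5.26%, against 9.04%). The table holds 47 of them, 6 of the tested ones passed through the 2-cell libraries alone, and their median relative to all genes was 0.71, or 0.13 with the trend removed. The sperm surface gene spe-9 was listed at 0 in both 2-cell libraries. An embryo contains the sperm that fertilized it, and whether adhering sperm added to these values was not tested.

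Markers of yolk, intestine, muscle and somatic gonad were mostly low in both groups, whereas unc-119 and snb-1 of the neuron list were not. Of 23 yolk and intestine markers 5 were tested and none was called (0 higher, 0 lower). The yolk genes vit-2, vit-5 and vit-6 were at most 0.136 RPKM in 2-cell embryos and 1.17 RPKM in oocytes. Of 23 muscle markers 7 were tested, 0 higher and 0 lower, with sums of 112 and 25.5 in 2-cell embryos and 65.6 and 52.7 in oocytes RPKM. The myosin gene unc-54 had 0.554 and 0.00409 RPKM in 2-cell embryos and 0.176 and 0.0855 in oocytes. Somatic gonad markers summed to 6.42 and 3.41 in 2-cell embryos and 5.05 and 5.13 in oocytes RPKM, with 2 of 10 tested and none called (0 and 0). In cuticle genes the 2-cell libraries themselves differed, with sums of 216 and 41.7 in 2-cell embryos and 68.2 and 89.3 in oocytes RPKM. Of 164 there, 17 were tested, 9 of them through the oocyte libraries alone, 1 was higher and 8 lower, and 38 were listed at 0 in both 2-cell libraries. The collagens col-140, col-119 and col-178 stood at -2.19, -1.82 and -1.67, and col-83 at 1.48, each under 10 RPKM in the mean of either group. The filter set the direction of col-140 and col-119, which passed through the oocyte libraries alone, and of col-83, which passed through the 2-cell libraries alone. The part of carried-over cells in these low values was not tested. Neuron markers summed to 525 and 641 in 2-cell embryos and 491 and 413 in oocytes RPKM, most of it from snb-1, a synaptobrevin gene, with 322 and 432 RPKM in 2-cell embryos against 462 and 379 in oocytes (adjusted p = 0.761), and 5 of 19 were tested. Of these 1 rose, unc-119 (M142.1), with 193 and 203 RPKM in 2-cell embryos, against 24.9 and 28.7 RPKM in oocytes (log2 difference 2.84, SE 0.40, adjusted p = 0.00314), a call that held throughout. unc-119 is a common rescue marker in transgenic strains, and the part of strain in the difference was not tested. The most abundant members of lists with no call, with log2 difference and adjusted p, were spl-1 (-0.25, 0.604), act-5 (-0.08, 0.885), act-4 (-0.23, 0.852), unc-97 (-0.45, 0.488), fos-1 (0.08, 0.877) and lag-2 (-0.83, 0.0313), none of which passed both thresholds, lag-2 missing the one on size.

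Genes on the X chromosome, which the worm germ line largely silences, showed fewer increases than autosomal genes. By the WBcel235 annotation 778 of the tested genes lay on X, and 16.6% of them were called higher and 9.51% lower. On each of chromosomes I to V the share called higher was between 30.9% and 33.1%, and the share called lower between 8.08% and 9.40%. The median log2 difference was 0.29 on X and between 0.76 and 0.80 on the autosomes. With the length trend removed it was -0.31 on X and between 0.06 and 0.15 on the autosomes. The shares and medians are given as a description over genes that share the 4 libraries, and the difference between chromosomes was not tested.

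Levels in 1-cell embryos were already near those of 2-cell embryos for most of these genes. Genes called lower had a median log2 difference of -1.94 in 1-cell embryos against oocytes and -1.80 in 2-cell embryos against oocytes. The median for genes called higher was 1.69 and 1.66. These comparisons share the oocyte libraries, so they are set side by side with no test. Of the 744 genes called lower, 246 had a 1-cell mean between those of oocytes and 2-cell embryos, and 498 had one under the 2-cell mean. Along oocyte, 1-cell and 2-cell stages, hsp-1 averaged 3279, 295 and 283 RPKM, and mex-5 2036, 391 and 429.6 RPKM. For mfap-1 the means were 19.2, 223 and 238 RPKM.

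Between the 1-cell and 2-cell stages, 4 genes (0.0486% of those tested) were called higher and 0 lower by limma with the same thresholds, and 68 genes had an unadjusted p under 0.05. Libraries were not paired by replicate number, although 1-cell and 2-cell libraries of one number were alike in some genes. F23A7.8 had 1264.5 and 19018 RPKM in 1-cell embryos and 1414 and 16870 in 2-cell embryos. A paired test was not run for this step, so the small count does not show that few genes changed. The tested genes were filtered on 2-cell and oocyte libraries, so one high in 1-cell embryos alone could not enter, and the numbers of increases and decreases cannot be set against each other. The 4 called genes were under 1 RPKM in both oocyte libraries and so passed through the 2-cell libraries alone. AH10.2 had 0.0256 and 0.0130 RPKM in oocytes, 0.131 and 0.0578 in 1-cell embryos and 4.04 and 3.86 in 2-cell embryos (log2 2.18 for 2-cell minus 1-cell, adjusted p = 0.0129). Y75B12A.2 had 0.0351 and 0.00550 RPKM in oocytes, 0.365 and 0.0389 in 1-cell embryos and 4.30 and 8.78 in 2-cell embryos (log2 2.60). F58E6.6 had 0.0191 and 0.0204 RPKM in oocytes, 0.133 and 0 in 1-cell embryos and 3.89 and 5.21 in 2-cell embryos (log2 2.37), and Y116A8C.20 had 4.27 and 7.31 RPKM in 2-cell embryos, under 1 RPKM at both earlier stages (log2 2.17). All 4 were lower in both 1-cell libraries than in either 2-cell library, and no role is given for them here.

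**Figure D5:**
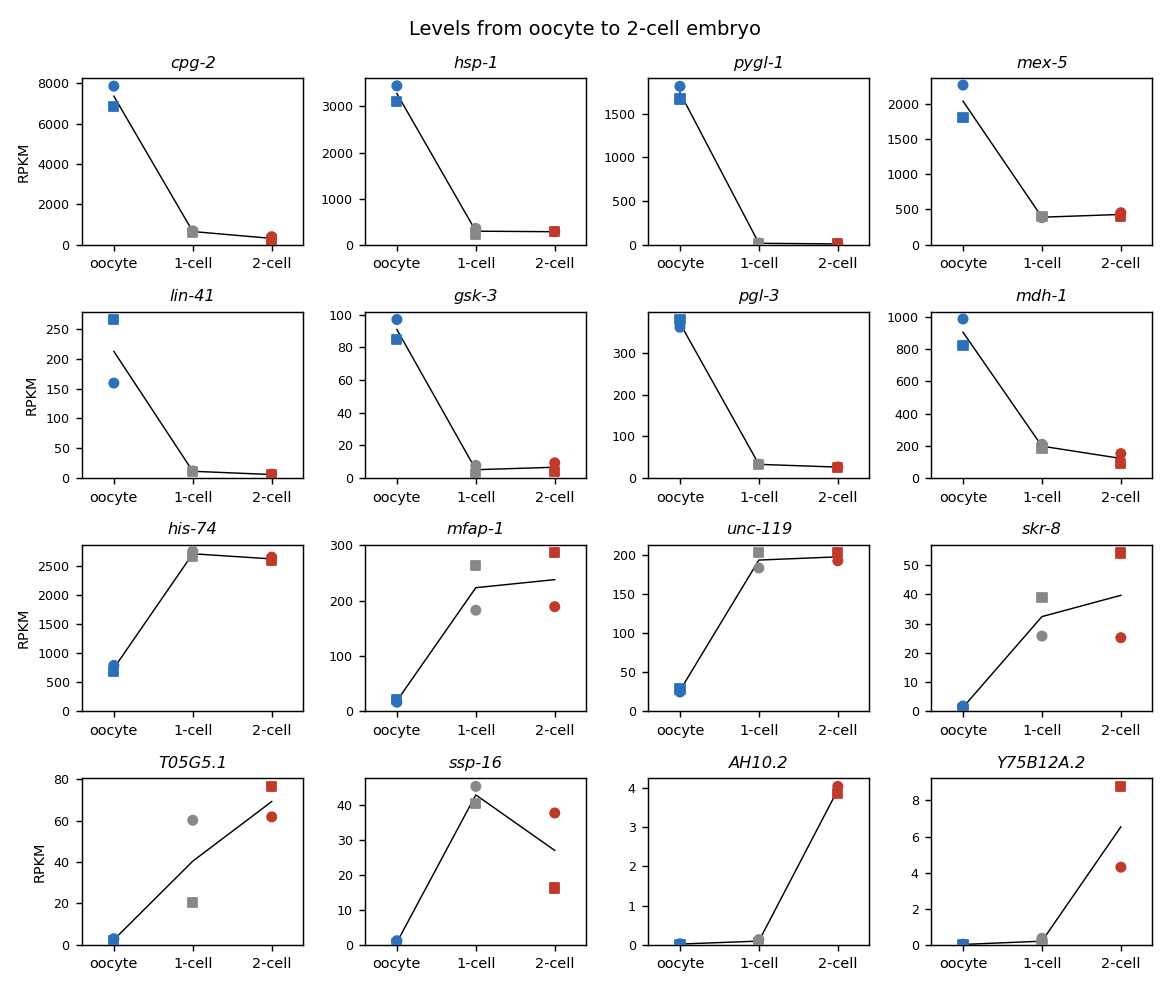
RPKM of 16 genes described in the text in oocytes (blue), 1-cell embryos (grey) and 2-cell embryos (red), each panel with its own linear axis that starts at 0; circles are replicate 1, squares replicate 2, and the line joins the means. cpg-2, hsp-1 and pygl-1 are already low in 1-cell embryos, mfap-1 and his-74 are already high, and AH10.2 and Y75B12A.2 are high in 2-cell embryos alone of the 3 stages.

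The 4 most abundant messages of 2-cell embryos were not called. sip-1 (F43D9.4), a small heat shock protein gene, ranked 1 in both groups with 16245 and 2503 RPKM in 2-cell embryos, against 15899 and 11457 RPKM in oocytes (adjusted p = 0.395), and its 2-cell libraries lay on both sides of the lower oocyte value. F23A7.8 had 1414 and 16869.8 RPKM in 2-cell embryos, against 1778 and 1581 RPKM in oocytes (adjusted p = 0.365), so its mean rested on 2-cell replicate 2. clec-87 (C25A1.8), a C-type lectin gene, had 6157 and 6252 RPKM in 2-cell embryos, against 7668 and 5722 RPKM in oocytes (adjusted p = 0.946), and the cyclophilin gene cyn-7 (Y75B12B.2) had 4396 and 4177 RPKM in 2-cell embryos, against 5523 and 4573 RPKM in oocytes (adjusted p = 0.679). In sip-1, F23A7.8 and clec-87 the libraries of the groups overlapped. By contrast cpg-2, cpg-1, hsp-1 and eef-1A.1, which were among the 15 most abundant in oocytes, fell. These genes were named by their rank of level after the values were seen.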

How the data were processed

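Polyadenylated RNA of 8 libraries was sequenced, and the values are RPKM per gene as deposited by the authors in one table, with reads aligned with BWA per the submitters' processing notes. The counting tool, genome build and annotation are not given in the sources used here, and no counts, so depth is unknown and no interval for counting error is given. The library keeps no strand per the labels' protocols, so overlapping and antisense genes cannot be told apart. From these values log2(RPKM + 1) was fitted in limma 3.58.1 (R 4.3.3) with 4 groups of 2 libraries, 4 residual degrees of freedom and a mean-variance trend. The two-sided moderated test of 2-cell minus oocyte was adjusted by Benjamini-Hochberg over all 8227 genes, and the script was tested on simulated data. Names, chromosomes and transcript lengths come from the WBcel235 annotation, which matched 7711 of the tested rows. Named genes are the 15 largest called changes in each direction whose higher group averaged 10 RPKM or more and whose libraries did not overlap, and up to 4 called members of each of 35 lists by level; others are said to be chosen after their values were seen, and 1 called list member is not reported here. The genes and lists were chosen with earlier results of these data known. Alternatives numbered 17.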

Additional observations from a re-analysis of the deposited data

How the results depend on the processing

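The counts of calls moved most when an oocyte library was left out, and also changed with the filter on low values and with scaling. Genes higher in 2-cell embryos numbered 857 with no filter on low values, 1525 with a common sum, 594 with median of ratios, 562 with the length trend removed and 924 with quantile normalization, and between 73 and 1579 with 1 of the 4 compared libraries left out. Genes lower numbered 320 with no filter, 1558 with median of ratios and 1198 with quantile normalization, and between 80 and 576 with 1 library left out. The cause was not tested. Leaving out any 1 of the 4 compared libraries takes away the same number of degrees of freedom, and no filter means more tests. The replicate numbers do not pair the libraries by any label. Same-numbered deviations of 2-cell embryos and oocytes correlated at -0.09, a value that leaves out the 1-cell and sperm libraries. In some genes 1-cell and 2-cell libraries of one number were alike. For sip-1, replicates 1 and 2 had 21728 and 5354 RPKM in 1-cell embryos and 16245 and 2503 in 2-cell embryos. With a replicate block 2987 genes were higher and 839 lower. The length slope was -0.36 with the shortest annotated transcript in place of the longest. With the length trend removed the log2 difference changed sign in his-60 (-0.26), lsm-5 (-0.47), rpb-10 (-0.038) and vha-17 (-0.22). The uncalled fos-1 stood at -0.15 with a common sum, -0.49 with median of ratios and -0.64 after quantile normalization. Leaving out 1 library, it ranged between -0.16 and 0.32, act-5 between -0.65 and 0.48, and act-4 between -1.67 and 1.21. Of the 146 called genes that the naming rule gives or the text adds, the call ended in 61 with the length trend removed, in 44 with median of ratios, in 83 with no filter, and in 105 and 110 without oocyte replicate 1 and 2.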

Other observations

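Some gene classes outside the lists had members called higher in shares above the 30.7% of all tested genes (7.29% of genes with a length once the length trend was removed). They were picked out after their values were seen and carry no test. F-box genes of the fbxb class, whose products bring targets to ubiquitin ligases, were called higher in 13 of 16 tested members, and those of the fbxa class in 18 of 32. With the length trend removed these counts were 0 and 4, and 1 fbxb gene was called lower. fbxb-15, with 4.92 and 4.64 RPKM in 2-cell embryos against 0.309 and 0.275 in oocytes, passed the filter through the 2-cell libraries alone. The filter set its direction, and how many such members these classes hold was not counted. The bath class of BTB and MATH domain genes had 13 higher and 1 lower of 23, the lower one being bath-40. With the trend removed 5 were higher and 2 lower, where 11.1% of all genes with a length were lower. Cyclophilins of the cyn class were higher in 10 of 14, and in 2 with the trend removed. The prp class of splicing factors had 6 higher of 13, and 5 with the trend removed.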
